A study of Homo sapiens with 2 samples.

Results

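PAX6 cells, the subject of this section, were the H9 cells that held 2 or more UMIs (unique molecular identifiers, 1 per captured transcript) of PAX6, a paired-box and homeodomain transcription factor of the developing eye, forebrain and pancreas. They were taken from barcodes with at least 1000 detected genes and from 2% to below 20% of UMIs from mitochondrial genes. There were 416 such cells among 11249 cells in that range and 24729 barcodes in all. The library given the sense oligonucleotide, SO_L1, held 128 of them among 4696 cells, and the library given the antisense oligonucleotide, ASO_L1, held 288 among 6553. Members were chosen by their PAX6 counts, so their PAX6 level is a description, with no test. Everything else is set against the cells with 0 PAX6 UMIs in the same library and range, called PAX6-0 cells, of which there were 4394 in SO_L1 and 5926 in ASO_L1.

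Both libraries came from H9, an established line of human embryonic stem cells, kept in RSeT, a medium for naive-type human pluripotent cells. From transfection on, both also received 10 nM DZNep and 5 nM TSA. DZNep is a methylation inhibitor used against the Polycomb enzyme EZH2, and TSA inhibits histone deacetylases. Each culture was transfected with 25 nM of a fluorescein-tagged oligonucleotide, either antisense to LINE1 (L1) transposon RNA or the sense control. For the first 24 hours the cultures also held the ROCK inhibitor Y-27632 (10 µM), the caspase inhibitor emricasan (5 µM) and Trans-ISRIB (0.7 µM), an inhibitor of the integrated stress response. At 48 hours, 100000 dye-positive cells per culture were sorted and loaded for a target of 12000 cells. Each group has 1 library from 1 line, so cells are not replicates, and the oligonucleotide, the culture and the library cannot be told apart. All intervals below are 95% counting intervals: they cover counting error only, and leave out the spread between cells and between cultures.

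In the embryo PAX6 marks the early neuroectoderm, and in human pluripotent cultures it is among the first genes switched on when cells turn toward a neural fate. That change usually comes with a switch from E-cadherin (CDH1) to N-cadherin (CDH2), with ZEB2 expression and with loss of POU5F1 and NANOG. SOX1 is a further marker of committed neural progenitors.

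The DNA just upstream of PAX6 and of IGFBP5, CYP26A1 and ZNF536, which ranked highest in PAX6 cells among the genes with a matched sequence, is given below to show what kind of promoter is involved. The sequences are RefSeq's on GRCh38.p14, written 5′ to 3′ on the gene's strand, ending at the annotated start or, for PAX6, where the longest gene model begins, and capitals mark CG pairs. They lie at chr11:31818063-31818211 (minus strand), chr2:216695550-216695799 (minus), chr10:93073225-93073474 (plus) and chr19:30225342-30225591 (plus), in that order.
PAX6: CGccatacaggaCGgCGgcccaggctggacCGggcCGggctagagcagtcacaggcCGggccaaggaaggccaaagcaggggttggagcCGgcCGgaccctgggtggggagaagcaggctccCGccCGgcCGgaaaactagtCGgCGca
IGFBP5: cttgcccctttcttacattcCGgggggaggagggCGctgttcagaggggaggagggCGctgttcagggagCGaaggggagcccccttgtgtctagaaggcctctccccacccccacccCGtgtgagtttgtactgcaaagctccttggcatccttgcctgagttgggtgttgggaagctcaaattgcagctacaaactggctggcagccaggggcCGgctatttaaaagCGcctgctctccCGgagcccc
CYP26A1: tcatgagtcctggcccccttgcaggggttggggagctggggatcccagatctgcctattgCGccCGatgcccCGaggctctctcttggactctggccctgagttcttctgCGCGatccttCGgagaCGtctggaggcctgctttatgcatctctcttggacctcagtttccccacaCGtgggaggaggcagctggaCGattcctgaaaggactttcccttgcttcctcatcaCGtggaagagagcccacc
ZNF536: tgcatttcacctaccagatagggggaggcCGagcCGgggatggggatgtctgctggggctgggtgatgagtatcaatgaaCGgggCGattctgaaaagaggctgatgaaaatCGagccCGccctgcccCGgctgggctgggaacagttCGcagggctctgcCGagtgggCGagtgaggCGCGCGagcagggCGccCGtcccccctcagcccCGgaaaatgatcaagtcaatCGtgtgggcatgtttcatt
The 149 bases shown for PAX6 held 13 CG pairs, and its full 250-base window held 22. The 250 bases upstream of IGFBP5, CYP26A1 and ZNF536 held 8, 10 and 17. Across the 27305 genes of the RefSeq table the median was 11 CG pairs in 250 bases, with quartiles at 3 and 23. Searched on both strands, the ZEB-type E-box CAGGTG, the homeodomain core TAATTA and the SOX core ACAAAG were not found in the 250-base windows of these 4 genes. Among the 8 leading genes below that had a sequence, ZEB2 included, 1 held CAGGTG, 0 held TAATTA and 3 held ACAAAG. Of all windows of this length 17.5% held CAGGTG, 4.49% held TAATTA and 13.7% held ACAAAG. SP9, NKX6-2, CDH6, ZFHX4 and BAALC had no matched sequence.

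PAX6 cells lacked the shallow cells found among PAX6-0 cells. PAX6 cells held a median of 45857.5 UMIs in SO_L1 and 63474.5 in ASO_L1, against 45002.5 and 55927 in PAX6-0 cells. The 5th percentile was 30535 and 36220 UMIs in PAX6 cells, against 2195 and 13234 in PAX6-0 cells. Mitochondrial UMIs took a median of 7.55% and 6.18% in PAX6 cells, against 8.99% and 7.39% in PAX6-0 cells. The 2 libraries listed 6105 barcode sequences in common, and 222 of them passed the filter in both. Among PAX6 cells, 26 of 128 in SO_L1 and 187 of 288 in ASO_L1 carried a barcode also listed in the other library, and 1 and 20 carried one that passed the filter there. Among all cells in the range, 885 of 4696 in SO_L1 and 3820 of 6553 in ASO_L1 carried a barcode listed in the other library. Whether reads passed between the libraries was not tested, and values without these barcodes stand beside the results that moved. No doublet caller was run, and cells of very high UMI number were left out only as an alternative.

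PAX6 itself was measured at 538 UMIs in the SO_L1 PAX6 cells, or 80.2 CPM (a gene's share of all UMIs of the pooled cells, scaled in the usual way), and at 1206 UMIs or 61.4 CPM in the ASO_L1 PAX6 cells. The median cell held 3 UMIs in either library, and the highest held 19 in SO_L1 and 20 in ASO_L1. In SO_L1, 51 cells had 2 UMIs, 39 had 3 to 4 and 38 had 5 or more, and in ASO_L1 these numbers were 105, 95 and 88. Just outside the threshold, 174 SO_L1 and 339 ASO_L1 cells had 1 UMI. Barcodes with under 1000 genes held PAX6 at 2.30 CPM in SO_L1 and 0.689 CPM in ASO_L1, where all cells in the range held 3.32 and 4.02 CPM. Many of these barcodes were also listed in the other library: 5040 of 6045 in SO_L1 and 791 of 2045 in ASO_L1. Of those, 3591 and 658 passed the filter there, so the level is not a plain measure of free RNA. Of these shallow barcodes, with median depths of 860 and 1054 UMIs, 1 of 6045 and 0 of 2045 had 2 or more PAX6 UMIs. Cells with 20% or more mitochondrial UMIs, at medians of 10412.5 and 10489.5 UMIs, had 2 or more in 0 of 472 and 0 of 530.

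**Figure D1:**
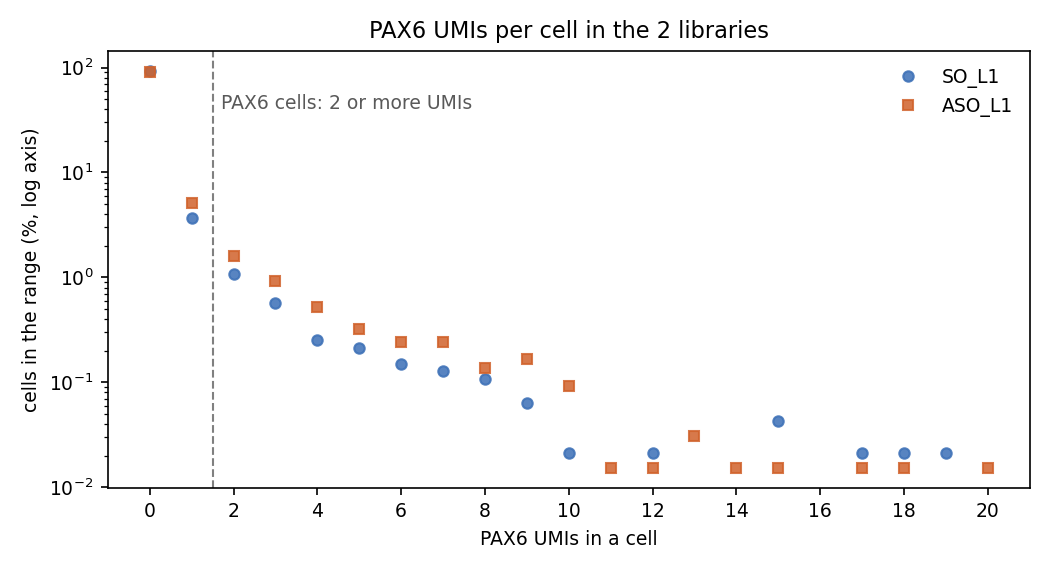
Share of cells in the mitochondrial and gene range (y, percent, log axis) with a given number of PAX6 UMIs (x) in SO_L1 (circles) and ASO_L1 (squares), and the threshold of 2 UMIs as a dashed line. Every count from 0 to 10 UMIs was found in both libraries, and the highest cells held 19 in SO_L1 and 20 in ASO_L1.

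PAX6 cells made up 2.73% of SO_L1 cells in the range (95% exact binomial interval 2.28% to 3.23%) and 4.39% of ASO_L1 cells (3.91% to 4.92%). ASO_L1 cells were deeper, and this share moved with depth. After every cell was thinned to 20000 UMIs, 1.27% (0.953% to 1.65%) of 4261 SO_L1 cells and 1.72% (1.41% to 2.07%) of 6173 ASO_L1 cells still held 2 or more PAX6 UMIs. At 8000 UMIs the shares were 0.460% and 0.490%, with intervals of 0.281% to 0.709% and 0.333% to 0.695%. At equal depth the intervals of the 2 libraries overlapped for this share. With 1 or more PAX6 UMIs at 20000 UMIs they lay apart, at 3.8% (3.25% to 4.42%) in SO_L1 and 5.12% (4.58% to 5.70%) in ASO_L1. With 1 library each, no difference between the groups could be tested. Thinning left out 435 SO_L1 and 380 ASO_L1 cells at 20000 UMIs, and 346 and 224 at 8000.

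The 3 markers given with PAX6 were all higher in PAX6 cells of both libraries. CDH2, N-cadherin, the adhesion molecule of neural epithelium (chr18:27950966-28177446 on hg38, minus strand), stood at 102 CPM in SO_L1 PAX6 cells against 11 in PAX6-0 cells, and at 72.7 against 13.5 CPM in ASO_L1. Its ratio was 9.29-fold (8.51 to 10.1) and 5.38-fold (5.07 to 5.71). CDH6, K-cadherin, found in early neural plate and crest (chr5:31193750-31329146, plus strand), stood at 18.9 against 2.04 CPM and at 11.2 against 1.60 CPM, or 9.29-fold (7.55 to 11.4) and 6.98-fold (5.95 to 8.18). In ASO_L1 5 cells held 47.7% of its UMIs, and CDH6 stood at 3.69-fold without them. ZEB2, a zinc-finger repressor of CDH1 that favours neural fate (chr2:144364364-144524583, minus strand), stood at 25.9 against 1.47 CPM and at 10.4 against 2.78 CPM. Its ratio was 17.6-fold (14.5 to 21.4) in SO_L1 and 3.73-fold (3.19 to 4.34) in ASO_L1, and those intervals lie apart. In each case both PAX6-cell values lie above both PAX6-0 values.

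Each marker was detected in a part of the PAX6 cells. At 20000 UMIs per cell, CDH2 had a UMI in 71.9% of SO_L1 and 56.2% of ASO_L1 PAX6 cells, against 16.5% and 18.1% of PAX6-0 cells. ZEB2 had one in 25.0% and 14.5%, against 1.99% and 4.5%, and CDH6 in 26.6% and 9.19%, against 3.61% and 2.61%. All 3 were found together in 10.2% of SO_L1 PAX6 cells (13 of 128) and 3.18% of ASO_L1 PAX6 cells (9 of 283), against 0.151% and 0.0899% of PAX6-0 cells. None of the 3 was found in 21.9% and 39.2% of PAX6 cells. At this depth a cell that carries ZEB2 or CDH6 at these low levels can show 0 UMIs of it. The share with all 3 therefore does not tell how many PAX6 cells carry all 3.

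Of 12993 genes measured in SO_L1, 193 (1.49%) were at least 2-fold higher in PAX6 cells and 269 (2.07%) at least 2-fold lower. In ASO_L1 106 of 15796 (0.671%) were higher and 379 (2.4%) lower. A gene counted as measured where at least 20 UMIs were expected in the smaller set of cells, at the mean of the 2 CPMs. A gene could thus be measured through the set where it was high. It counted as higher or lower where its interval also left out a ratio of 1. Of 12982 genes measured in both libraries, 189 were higher in SO_L1 and 71 in ASO_L1, and 61 in both, which is 32.3% of the first and 85.9% of the second. For lower genes the numbers were 268, 213 and 124, or 46.3% and 58.2%. Both contrasts use the same member rule and line, and 222 barcodes passed the filter in both libraries, so they are not independent.

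The 12 genes named as highest were measured in both libraries and ranked by the interval bound nearest to 1, taking the smaller of the 2 libraries. Those rare in PAX6-0 cells, such as SP9 and NKX6-2, were measured only through their level in PAX6 cells. Of the 12, 4 encode transcription factors with roles in the developing nervous system. The share of such factors among all genes measured was not counted, so this number is a description. SP9, a zinc-finger factor of forebrain interneuron precursors, held 62 UMIs in 128 SO_L1 PAX6 cells against 37 UMIs in 4394 PAX6-0 cells, a ratio of 49.6-fold (32.5 to 76.7). In ASO_L1 SP9 stood 13.0-fold higher (10.4 to 16.3). NKX6-2, a homeodomain factor of the ventral neural tube, stood at 12.4 against 0.201 CPM in SO_L1, or 61.4-fold (41.6 to 92.0), and at 2.55 against 0.186 CPM in ASO_L1, or 13.7-fold (9.25 to 20.1). In ASO_L1 1 cell held 48% and 5 cells 78% of the NKX6-2 UMIs. Its ratio there was 7.12 without the first, 3.05 without all 5 and 1.95 without the barcodes listed in both libraries. ZNF536, a zinc-finger repressor that restrains neuronal differentiation, stood at 13.1 against 0.524 CPM and at 5.70 against 0.463 CPM, or 25.1-fold (18.6 to 33.6) and 12.3-fold (9.59 to 15.8). Without the barcodes listed in both libraries ZNF536 stood at 5.16-fold in ASO_L1. ZFHX4, a large zinc-finger and homeodomain factor, was 7.5-fold (5.11 to 10.8) and 5.07-fold (3.74 to 6.79) higher.

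The other leading genes have varied roles. IGFBP5, a secreted carrier of insulin-like growth factors, stood at 32.8 against 1.04 CPM in SO_L1 and 12.6 against 0.626 CPM in ASO_L1, or 31.5-fold (25.9 to 38.2) and 20.2-fold (16.7 to 24.3). CYP26A1, the enzyme that degrades retinoic acid, stood at 9.24 against 0.408 CPM and 13.2 against 0.780 CPM, or 22.7-fold (16 to 31.9) and 17-fold (14.3 to 20.2). ADAMTSL1 is an extracellular matrix protein. At 20000 UMIs per cell it had a UMI in 66.4% of SO_L1 and 54.8% of ASO_L1 PAX6 cells. In PAX6-0 cells these shares were 9.24% and 9.76%. The ADAMTSL1 ratio was 14.8-fold (13.4 to 16.2) and 9.15-fold (8.52 to 9.81). RAMP3, which carries the calcitonin-type receptor to the membrane, was 7.32-fold and 5.49-fold higher, BAALC 6.55-fold and 4.53-fold, and C6orf141 5.29-fold and 5.05-fold. CDH2 and CDH6 complete the 12. All 12 had the larger ratio in SO_L1, also when PAX6 cells were called after thinning to 20000 UMIs (12 of 12).

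**Figure D2:**
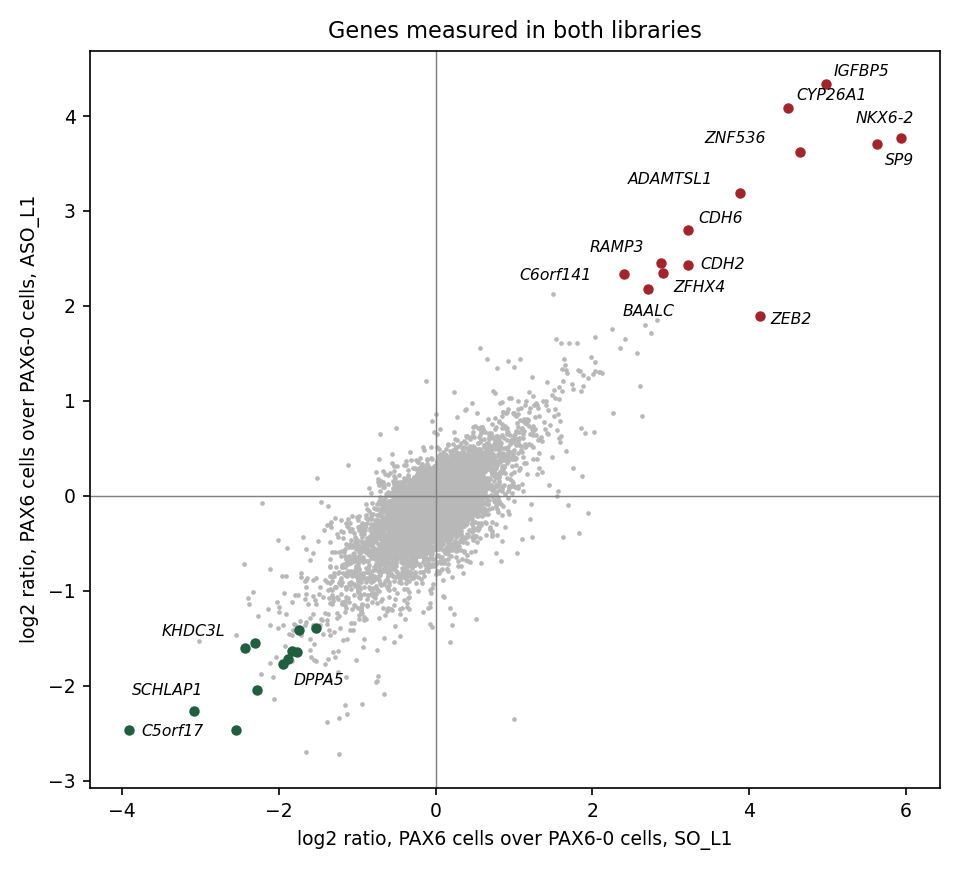
Log2 ratio of PAX6 cells over PAX6-0 cells in SO_L1 (x) and ASO_L1 (y) for genes measured in both libraries (grey points, PAX6 left out), with the 12 highest genes and ZEB2 in red and the 12 lowest in green. IGFBP5 lies at 4.98 and 4.33, NKX6-2 farthest right at 5.94 on the SO_L1 axis, BAALC at 2.18 on the ASO_L1 axis, and ZEB2 at 4.14 and 1.90.

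The levels of several of these genes followed the number of PAX6 UMIs per cell. ZEB2 in SO_L1 stood at 1.47 CPM in cells with 0 PAX6 UMIs, 3.51 with 1, 8.81 with 2, 19.6 with 3 to 4 and 53.1 with 5 or more. CDH2 stood at 11, 29.7, 75.8, 86.5 and 150 CPM in the same order in SO_L1, and at 13.5, 32.9, 48.0, 79.1 and 93.4 CPM in ASO_L1. ADAMTSL1 stood at 7.02, 25.4, 48.6, 110 and 166 CPM in SO_L1 and at 6.69, 19.0, 32.2, 68.7 and 85.2 CPM in ASO_L1. Cells with 1 PAX6 UMI lay between the PAX6-0 cells and the PAX6 cells for all 3 genes, so the threshold of 2 UMIs cuts a range of values. CDH6 in ASO_L1 did not follow this order, with 13.6, 10.4 and 9.45 CPM from 2 UMIs upward. The median depth of the 5-or-more class was 46943 UMIs in SO_L1 and 68579 in ASO_L1.

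**Figure D3:**
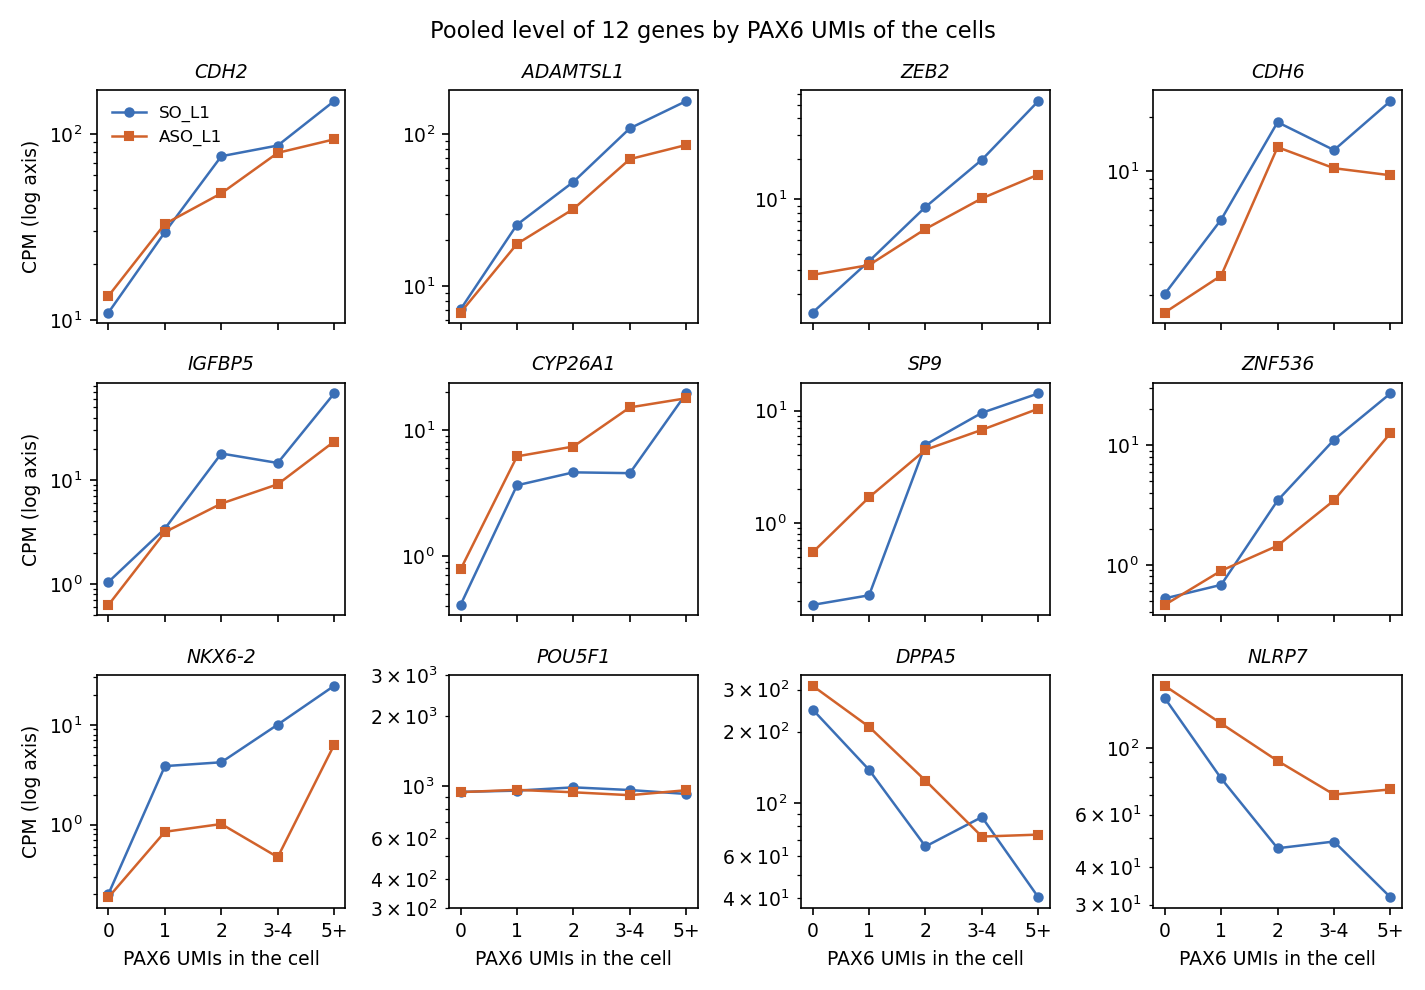
Pooled CPM (y, log axis) of 12 genes in cells with 0, 1, 2, 3 to 4, and 5 or more PAX6 UMIs (x), in SO_L1 (circles) and ASO_L1 (squares). CDH2, ADAMTSL1, ZEB2 and ZNF536 are higher in each class than in the one before in both libraries, POU5F1 stays between 915 and 989 CPM, and DPPA5 and NLRP7 are lower in PAX6 cells.

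Several leading genes shared cells, while CYP26A1 did so less regularly. In SO_L1, 22 of 128 PAX6 cells held ZNF536, and 17 of these (77.3%) also held IGFBP5, which was present in 40 cells. Also in SO_L1, ZEB2 was found in 20 of the 25 cells with NKX6-2 and in 21 of the 35 cells with SP9. Among SO_L1 cells without NKX6-2 it was in 20.4%, and among those without SP9 in 21.5%. ASO_L1 gave lower shares, with ZEB2 in 6 of 14 cells with NKX6-2 (42.9%) and 28 of 72 with SP9 (38.9%). There it was in 22.3% of cells without NKX6-2 and 18.1% of those without SP9. These counts are at full depth. CYP26A1 was found in 33 cells of SO_L1: 22.5% of cells with IGFBP5 held it against 27.3% of cells without. In ASO_L1 the order was opposite, with CYP26A1 in 48.1% of cells with IGFBP5 against 28.9% of cells without. SP9 was in 18.2% of SO_L1 cells with CYP26A1 against 30.5% of those without, but in 32.7% against 21.1% in ASO_L1. ZEB2 was in 39.4% of SO_L1 cells with CYP26A1 against 29.5% of those without, but in 18.4% against 25.8% in ASO_L1. In ASO_L1, 26 of 40 cells with ZNF536 (65%) and 37 of 98 with CYP26A1 (37.8%) held IGFBP5, which was present in 77 of 288 cells. At 20000 UMIs, 3 or more of IGFBP5, CYP26A1, SP9, ZNF536 and NKX6-2 were found in 9.38% of SO_L1 PAX6 cells and 6.01% of ASO_L1 PAX6 cells. They were found in 0 of 3961 SO_L1 and 2 of 5561 ASO_L1 PAX6-0 cells. These 5 genes were chosen for their ratios, so the counts are a description.

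The 12 lowest genes included several of the naive state and the germline. DPPA5, an RNA-binding protein of naive cells, stood at 64.2 CPM in SO_L1 PAX6 cells against 248 in PAX6-0 cells and at 91.3 against 312 in ASO_L1, ratios of 0.259 (0.235 to 0.285) and 0.293 (0.279 to 0.307). KHDC3L, an oocyte and early embryo factor beside DPPA5 on chromosome 6, stood at 0.185 and 0.328, and TDRD12, a piRNA pathway protein, at 0.270 and 0.304. CR1L, a complement receptor-like gene, stood at 0.282 and 0.322, and MT1M, a metallothionein, at 0.346 and 0.382. The others were the long noncoding RNAs C5orf17 (0.066 and 0.181), SCHLAP1 (0.118 and 0.207), FOXD3-AS1 (0.299 and 0.375) and RHOXF1-AS1 (0.203 and 0.342), and TSPEAR (0.206 and 0.241), C7orf57 (0.171 and 0.181) and ABCA13 (0.292 and 0.320). From 0 to 5 or more PAX6 UMIs, DPPA5 stood at 248, 138, 65.9, 87.5 and 40.3 CPM in SO_L1 and at 312, 210, 125, 72.5 and 73.9 CPM in ASO_L1. Every class of PAX6 cells thus lay below the PAX6-0 cells, without a steady order among the classes.

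The label "neural-like" was set against lists of neural genes. Of the early neural list of 20 genes, 14 were measured in SO_L1, and 9 were at least 1.5-fold higher and 0 lower, with a median log2 ratio of 1.18. In ASO_L1 8 of 15 were higher and 0 lower, with a median of 0.75. Over all genes measured, 4.37% were 1.5-fold higher in SO_L1 and 2.23% in ASO_L1, 6.11% and 7.5% were lower, and the medians were 0.02 and -0.02. These lists were drawn up with earlier results of these data known.

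The members that were higher are mostly regulators of progenitors. ZNF521, a zinc-finger factor that promotes neural conversion, was 4.23-fold (3.60 to 4.94) and 2.48-fold (2.18 to 2.80) higher, FABP7, a radial glia fatty acid carrier, 3.16-fold and 2.51-fold, and DACH1, an eye and forebrain cofactor, 3.15-fold and 2.61-fold. SOX21, a repressor of the SoxB group, was 2.83-fold (2.37 to 3.36) in SO_L1 and 4.37-fold (3.97 to 4.81) in ASO_L1. HES5, a Notch target of neural progenitors, was 2.86-fold and 2.17-fold higher, and 1.41-fold and 1.27-fold without the 5 cells richest in it. SOX11, a neural SoxC factor, was 2.27-fold and 1.74-fold higher, and MSI1, an RNA-binding protein of neural stem cells, 2.25-fold and 1.69-fold. SFRP1, a WNT antagonist, stood at 1.48 in SO_L1 and 2.95 in ASO_L1, and at 0.889 and 0.55 in cells with 5 or more PAX6 UMIs. In ASO_L1 5 cells held 80.9% of the SFRP1 UMIs, and its ratio was 0.574 without them. Nestin (NES), a progenitor filament, stood at 1.13 and 1.12, and GPM6B at 0.897 and 0.873.

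Other defining neural genes were too rare to compare or lay near their PAX6-0 level. SOX1 had 0 UMIs in the PAX6 cells of both libraries, and 3 and 7 UMIs in the PAX6-0 cells. At these counts a difference in SOX1 was not detectable: the interval of its ratio ran from 0 to 71.7 in SO_L1 and from 0 to 12.1 in ASO_L1. SOX3 held 4 UMIs in SO_L1 PAX6 cells, under the measured minimum, and 30 in ASO_L1, with ratios of 0.681 (0.183 to 1.77) and 0.749 (0.501 to 1.08). Of the forebrain and eye field list 3 genes were measured in each library, and 0 were 1.5-fold higher or lower in either (median log2 ratio -0.31 and 0.14): HESX1, for example, stood at 0.805 and 1.11, and OTX2 at 1.2 and 1.31. Among neuronal genes 1 of 6 in SO_L1 and 2 of 12 in ASO_L1 were higher, and 0 and 2 lower. The growth-cone protein STMN2 was 3.06-fold (2.84 to 3.28) and 2.15-fold (2.05 to 2.25) higher, while TUBB3 stood at 1.32 and 1.13, SYT1 at 0.975 and 0.850 and ELAVL3 at 0.767 and 0.528. The given markers and many early neural genes were thus higher, SOX1 could not be compared, and no measured gene of the forebrain list was 1.5-fold higher, so these cells are called PAX6 cells here.

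Few genes of other PAX6-bearing or neighbouring lineages were measured, and the median log2 ratios of the lists were -0.83 and -0.44 for midbrain, hindbrain and cord and -0.65 and -0.57 for neural crest. Of the midbrain, hindbrain and cord list, 0 of 1 measured gene in SO_L1 and 0 of 6 in ASO_L1 were higher, and CDX4 stood at 0.561 and 0.704. Neural crest genes gave 0 of 2 and 1 of 7 higher: ETS1 stood at 0.803 and 0.818, EDNRB at 0.504 and 0.632, TWIST1 at 0.431 (under the measured minimum) and 0.347 and FOXD3 at 0.330 in ASO_L1, and SOX10 held 5 and 7 UMIs in PAX6 cells. Placode and lens genes gave 1 of 4 (EYA2) and 0 of 7, and pancreatic endocrine genes 0 of 1 and 0 of 2. Of the other PAX genes, PAX5 alone was measured, in ASO_L1, and was within 1.5-fold, and PAX3, a dorsal neural tube and crest factor, held 6 and 9 UMIs in PAX6 cells. Under the measured minimum in both libraries, PAX3 had ratios of 4.68 (1.62 to 11.1) and 2.54 (1.11 to 5.14). Of the ZIC family 0 of 1 and 0 of 2 were higher, with ZIC2 at 1.44 (1.04 to 1.94) in ASO_L1, and at 0.84 without the barcodes listed in both libraries. In SO_L1 ZIC2 held 8 UMIs, under the measured minimum, with a ratio of 4.47 (1.84 to 9.46).

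Core pluripotency factors stood near their level in PAX6-0 cells. POU5F1 stood at 961 CPM in SO_L1 PAX6 cells against 945 in PAX6-0 cells, and at 939 against 943 in ASO_L1, ratios of 1.02 (0.992 to 1.04) and 0.996 (0.981 to 1.01). NANOG stood at 1.16 and 1.17, and SOX2, shared by pluripotent and neural cells, at 1.24 (1.19 to 1.29) and 1.14 (1.11 to 1.18). POU5F1 was within 915 to 989 CPM in every class of PAX6 UMIs, the class of 5 or more included. Of 19 general pluripotency genes, all measured, 2 were higher in each library, LEFTY1 and LEFTY2. LEFTY2, a secreted Nodal antagonist, stood at 2.10 (2.06 to 2.14) and 1.73 (1.71 to 1.76), and LEFTY1 at 1.86 and 1.64. GDF3, a TGF-beta family ligand, was lower in both (0.625 and 0.651), and the telomere protein TERF1 was lower in ASO_L1 (0.759 and 0.651).

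The naive list moved the other way from the early neural one. In SO_L1 8 of 12 measured members were lower and 1 higher, with a median log2 ratio of -1.22, and in ASO_L1 11 of 16 were lower and 1 higher, with a median of -1.05. NLRP7, a maternal-effect gene, stood at 0.288 (0.255 to 0.324) and 0.483 (0.459 to 0.508), DNMT3L, a cofactor of DNA methylation, at 0.281 and 0.361, and DPPA3 at 0.488 and 0.583. FGF4 stood at 0.339 and 0.480. KLF4 was the member that was higher, at 2.16 (1.67 to 2.77) and 1.57 (1.43 to 1.72). Of the primed list 2 of 12 were higher and 1 lower in SO_L1, and 2 of 16 and 2 in ASO_L1, with CD24 at 1.17 in both libraries, TCF7L1 at 1.08 and 0.867 and KDR at 0.479 and 0.555.

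Cadherins and genes of epithelial to mesenchymal change were split. Of this list 5 of 16 were higher and 2 lower in SO_L1, and 5 of 19 and 1 in ASO_L1. Besides the cadherins and ZEB2 above, vimentin (VIM) stood at 558 against 128 CPM and at 1256 against 514 CPM, or 4.34-fold (4.2 to 4.5) and 2.45-fold (2.41 to 2.48). ZEB1 was 1.99-fold higher in ASO_L1. E-cadherin stayed on: CDH1 stood at 48.6 against 66.2 CPM and 36.0 against 53.2 CPM, ratios of 0.734 (0.656 to 0.819) and 0.678 (0.628 to 0.731). EPCAM stood at 0.842 and 0.957. CDH2 was thus higher and CDH1 lower in both libraries. The CDH1 intervals left out 1, while its ratios lay within 1.5-fold of the PAX6-0 level.

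Signalling lists were mixed, with a few members apart from the rest. In the Notch list 2 of 13 were higher and 2 lower in SO_L1, and 4 of 17 and 2 in ASO_L1. The ligand JAG1 stood at 1.52 and 1.63 and JAG2 at 0.464 and 0.462, and the target HES4 at 0.392 and 0.528 while HES5 was higher, and HEY2 stood at 0.907 and 1.02. In the WNT list 3 of 13 were higher and 1 lower, and 4 of 15 and 1. The receptor FZD3 was 2.36-fold and 1.67-fold higher, SP8, a relative of SP9, 5.92-fold (4.31 to 8.00) and 2.84-fold (2.44 to 3.29), and the feedback target AXIN2 stood at 0.541 and 0.662. In the FGF and ERK list 2 of 14 were higher and 1 lower, and 0 of 15 and 2, and the receptor FGFR2 stood at 1.09 and 1.11.

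In the BMP and Nodal list 3 of 15 were higher and 1 lower in SO_L1, and 3 of 16 and 1 in ASO_L1, with the same genes in both libraries. The higher ones were LEFTY1, LEFTY2 and follistatin (FST, 2.02 and 1.57), all secreted antagonists, and the lower one was the ligand BMP4 (0.468 and 0.610). In the hedgehog and retinoid list 2 of 13 were higher and 3 lower, and 3 of 17 and 1. Beside CYP26A1, GLI3 stood at 1.98 and 1.37, and GAS1 at 2.01 (under the measured minimum) and 2.21. The receptor PTCH1 stood at 0.661 and 0.804, CRABP1, a retinoid carrier, at 1.07 and 1.0, and GLI2 at 0.929 and 1.0.

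Among mesendoderm and mesoderm genes 2 of 4 were higher in SO_L1 and 1 of 4 in ASO_L1. CER1, a secreted Nodal and BMP antagonist, stood at 2.06 (1.45 to 2.87) and 1.65 (1.56 to 1.75), FGF8 at 1.57 and 1.36, and TBXT held 1 and 2 UMIs in PAX6 cells. Endoderm gave 0 of 2 and 0 of 4, trophectoderm 0 of 4 and 1 of 6 (GATA2), amnion 1 of 2 and 1 of 4, and GATA3 held 1 and 4 UMIs. For the 8-cell (8C) stage list, 5 of 5 measured genes were lower in ASO_L1, with a median log2 ratio of -2.02. There KHDC1L stood at 6.67 against 29.6 CPM (0.225, 0.188 to 0.268), CCNA1 at 0.439 and FAM151A at 0.103. The shares of ASO_L1 cells with a UMI lay closer together. At 20000 UMIs per cell KHDC1L had one in 8.48% of PAX6 cells against 9.51% of PAX6-0 cells. For CCNA1 these shares were 16.3% and 19.5%, and for FAM151A 1.06% and 1.65%. The pooled ratios thus do not show that fewer PAX6 cells held these transcripts. In SO_L1 1 gene of that list was measured, CCNA1, at 0.731. Cell-cycle genes did not differ by 1.5-fold: 0 of 19 S-phase and 0 of 19 G2M genes were higher or lower in either library. MCM3 stood at 1.15 and 1.10 and CCNB1 at 0.932 and 1.01. In the p53 target list 0 of 14 were higher and 2 lower in SO_L1, and 1 of 19 higher and 3 lower in ASO_L1, with BAX at 0.907 and 0.939 and MDM2 at 0.862 and 0.879.

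**Figure D4:**
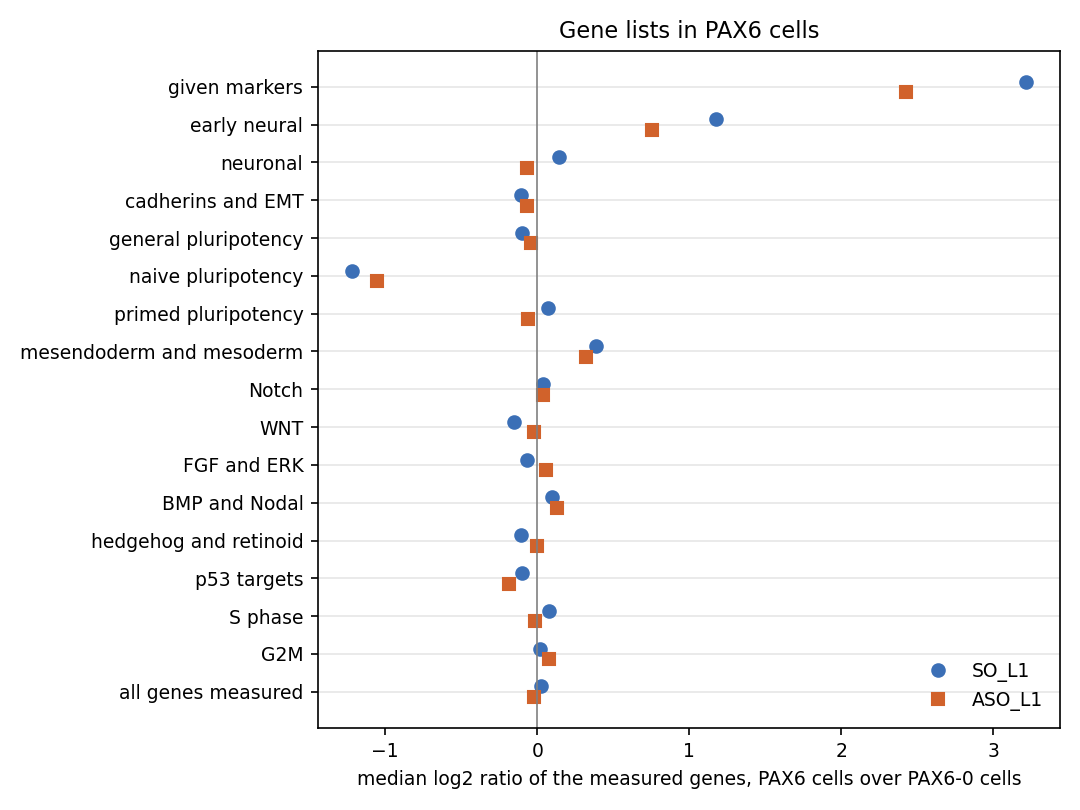
Median log2 ratio of PAX6 cells over PAX6-0 cells (x) over the measured genes of 16 lists and over all genes measured (y), in SO_L1 (circles) and ASO_L1 (squares), with lists of other lineages left out of the plot. The given markers (3.22 and 2.43) and the early neural list (1.18 and 0.75) lie to the right, the naive list (-1.22 and -1.05) to the left, and the remaining plotted lists between -0.19 and 0.39.

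At the PAX6 locus on chromosome 11, 1 neighbour was higher in PAX6 cells. PAUPAR, a long noncoding RNA that starts inside PAX6 on the opposite strand (chr11:31812307-32002405 against PAX6 at chr11:31784779-31818062), held 24 UMIs in SO_L1 and 70 in ASO_L1 PAX6 cells, against 52 and 110 in PAX6-0 cells. Its ratio was 11.1-fold (8.13 to 15.2) in ASO_L1. In SO_L1, where it was under the measured minimum, the ratio was 13.7-fold (8.06 to 22.6). The strand setting of the counting is not known, and without it reads of PAX6 and PAUPAR could be mistaken for each other. ELP4, which holds distant PAX6 enhancers, stood at 1.17 and 0.969, IMMP1L at 1.09 and 1.12, DNAJC24 at 1.29 and 1.09, and RCN1 at 1.10 and 1.17.

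PAX6 cells of ASO_L1 were then set against those of SO_L1. Of 12854 genes measured, 436 (3.39%) were at least 2-fold higher in ASO_L1 and 754 (5.87%) lower, while among PAX6-0 cells 1286 of 23032 (5.58%) were higher and 1071 (4.65%) lower. The genes that led this comparison also differed between the PAX6-0 cells of the 2 libraries. STMN4, a stathmin family member, held 2 UMIs in SO_L1 PAX6 cells and 344 in ASO_L1, a ratio of 58.7 (16.1 to 487), against 19.6 among PAX6-0 cells. DDIT3 and ATF5, factors of the integrated stress response, stood at 11.5 (8.41 to 16.2) and 9.64 (7.92 to 11.9), against 7.86 and 7.03. CER1 stood at 11.1 against 13.9, CCR7 at 27.5 against 66.5, LIM2 at 29.8 against 12.7 and FXYD4 at 18.3 against 5.86, with 41% of its ASO_L1 UMIs in 1 cell. KHDC1L held 0 UMIs in SO_L1 PAX6 cells and 131 in ASO_L1, which is at least 14.9-fold higher with a floor of 3 UMIs per set, against 23.1-fold among PAX6-0 cells.

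Many of the genes lowest in ASO_L1 PAX6 cells rested on a few SO_L1 cells. All 98 RHOJ UMIs of the SO_L1 PAX6 cells came from 1 cell, and 5 cells held 99.5% of DDX43, 97.9% of SLC28A2, 97.1% of DISC1FP1 and 93% of NCAM1 UMIs. KCNB2, a voltage-gated potassium channel subunit, was spread more widely. At 20000 UMIs per cell it had a UMI in 64.8% of SO_L1 and 20.5% of ASO_L1 PAX6 cells. The KCNB2 ratio was 0.208 (0.185 to 0.234) against 0.409 among PAX6-0 cells. HES5 stood at 0.182 (0.13 to 0.251) against 0.239, with 52.3% of its SO_L1 UMIs in 5 cells, and FIGNL2 at 0.121 against 0.368.

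The 12 leading genes apart from CYP26A1 had ratios under 1 between ASO_L1 and SO_L1 PAX6 cells, while several other genes that were higher in PAX6 cells had ratios above 1. ZEB2 stood at 0.400 (0.325 to 0.493) between the PAX6 cells but at 1.89 (1.66 to 2.17) between the PAX6-0 cells, so its direction was opposite in the 2 sets; that difference was not tested. CDH2 likewise stood at 0.711 against 1.23, and SP9 at 0.771 (0.568 to 1.06) against 2.94. NKX6-2 stood at 0.206 against 0.925, IGFBP5 at 0.385 against 0.600, and CDH6 at 0.592 against 0.786. CYP26A1 stood at 1.43 (1.08 to 1.92) against 1.91. VIM stood at 2.25 (2.18 to 2.33) against 4.0, SOX21 at 1.26 (1.04 to 1.52) against 0.813, SFRP1 at 1.84 against 0.921 and SP8 at 1.36 against 2.83. SFRP1 stood at 0.935 without the barcodes listed in both libraries. PAX6 itself stood at 0.765 (0.691 to 0.849). The ASO_L1 cells had a median depth of 63474.5 UMIs against 45857.5, and the part of depth in these ratios was not tested.

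**Figure D5:**
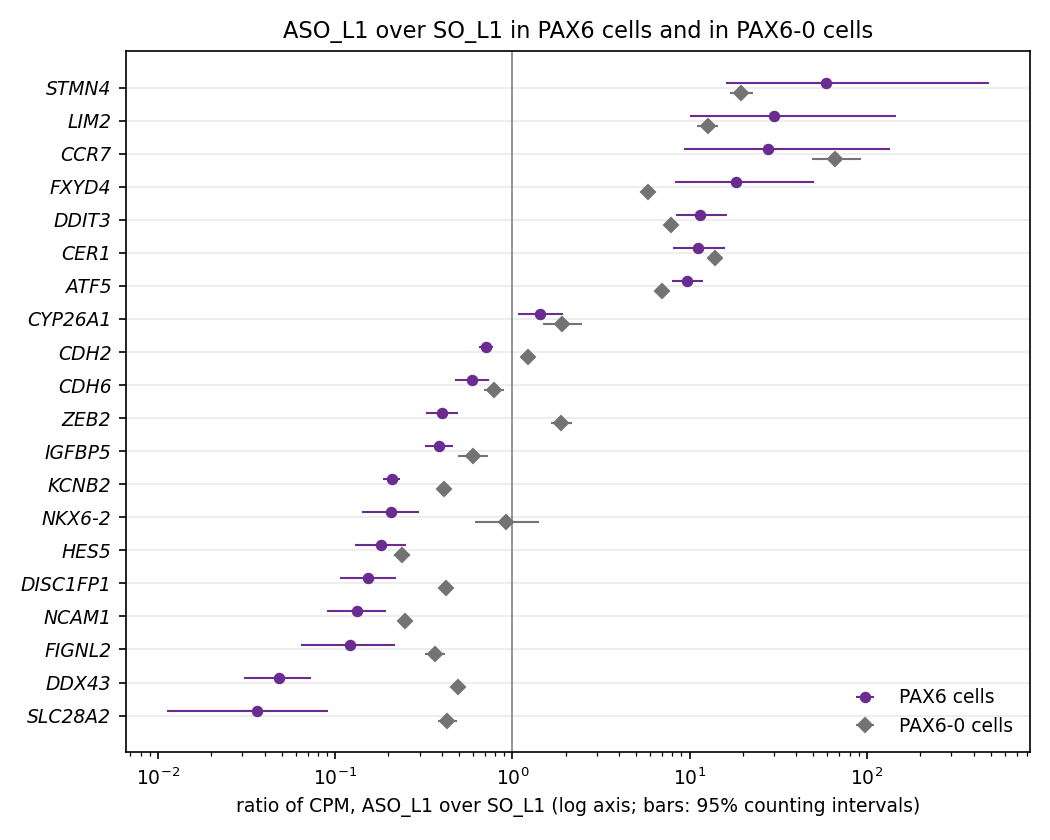
Ratio of CPM in ASO_L1 over SO_L1 (x, log axis) among PAX6 cells (circles) and among PAX6-0 cells (diamonds) for 20 genes (y), with 95% counting intervals as bars. Both sets lie to the right of 1 for the 7 genes from STMN4 to ATF5, and ZEB2 and CDH2 lie on opposite sides of 1 in the 2 sets.

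As lists, naive genes were higher in ASO_L1 PAX6 cells in 8 of 12 and lower in 0 (median log2 ratio 0.89), p53 targets in 8 of 16 and lower in 2 (0.67), and early neural genes in 3 of 14 and lower in 5 (0.07). Of all genes measured in this comparison, 11.2% were 1.5-fold higher and 17% lower, and the median was -0.05. Among PAX6-0 cells the same lists gave 9 of 20 and 3 for naive genes, 12 of 20 and 0 for p53 targets, and 4 of 17 and 2 for early neural genes, where 13.8% of all genes measured were higher and 15.3% lower. General pluripotency genes gave 0 of 19 higher and 1 lower in either set of cells.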

How the data were processed

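Single-cell RNA sequencing of 2 sorted H9 cultures gave 1 deposited matrix per library, holding raw UMI counts for 36601 genes. The authors made these counts with Cell Ranger (version 7.1.0), and the build was hg38; both come from the submitters' processing notes, and the sources name no annotation release, cell-calling, intron or strand setting. GENCODE 29 positions matched 34587 genes. Samples were grouped by their labels. Cells were filtered as the report describes, UMIs were summed over cells, and ratios of CPM were given with exact conditional binomial intervals at 95%. With 1 library per group no p-value can be computed. A gene was measured with 20 UMIs expected in the smaller set at the mean of the 2 CPMs. It was higher or lower past 2-fold with an interval leaving out 1. For lists the bound was 1.5-fold, with no interval required. The floor for a count of 0 was 3 UMIs. Shares were also computed after thinning cells to 8000 or 20000 UMIs. The code was tested on simulated data. Python 3.11.15, numpy 2.4.6, scipy 1.17.1, pandas 2.3.3 and matplotlib 3.10.9 were used. Total depth in the PAX6 cells was 6708622 UMIs in SO_L1 and 19646188 in ASO_L1, so SO_L1 ratios are less precise.

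The members and gene lists were chosen with earlier results of these data known. Named genes were the 12 highest and 12 lowest by the interval bound nearest to 1 over both libraries, and the 8 highest and 8 lowest between libraries. From each list came the 2 largest ratios and the 2 genes with most UMIs, and a set of neural, pluripotency and lineage markers was always included. Clone-style and LINC names and mitochondrial genes were left out. ZEB1, DNMT3L, DACH1, JAG1, MSI1, RCN1, PAUPAR, FST, GDF3, IMMP1L, PTCH1, KLF4, DNAJC24, DPPA3, TERF1 and AXIN2 fell outside this rule and were named after their values were seen. Alternatives covered the PAX6 threshold, depth, the total, cell weighting, high-UMI cells, shared barcodes, the cell filter and the UMI minimum.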

Additional observations from a re-analysis of the deposited data

Results flagged for a closer look

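CDKN1A, the p53-induced cell-cycle inhibitor p21, stood at 0.611 in PAX6 cells over PAX6-0 cells in SO_L1 and at 1.57 in ASO_L1, so the 2 libraries lay on opposite sides of 1. In ASO_L1 1 cell held 44.3% of its UMIs, and the ratio was 0.879 without that cell. DDX43, a germline helicase, stood at 2.01 in SO_L1 and at 0.195 in ASO_L1. In SO_L1 5 cells held 99.5% of its UMIs, and the ratio was 1.22 without the richest cell and 0.0114 without all 5. Neither difference between the libraries was tested, since each has 1 library.

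Cells with under 2% mitochondrial UMIs lie outside the range of the report, yet some held 2 or more PAX6 UMIs: 0.162% in SO_L1 (3 of 1857) and 1.94% in ASO_L1 (49 of 2531). At 20000 UMIs per cell the counts were 0 of 1280, which allows a share of up to 0.288% by the exact binomial interval, and 14 of 1950 (0.718%). In the 49 ASO_L1 cells, CDH2 stood at 2.57, ZEB2 at 2.80, ADAMTSL1 at 3.87 and IGFBP5 at 6.09 over the cells with 0 PAX6 UMIs in that class, and CDH6 stood at 0.535. The difference between the libraries was not tested.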

How the results depend on the processing

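No paired analysis was possible because each group has 1 library. The 12 leading genes and ZEB2 kept their side of 1 in both libraries under all 13 alternatives run for them, although NKX6-2 in ASO_L1 ranged down to 1.95. The alternatives of 5 and 50 UMIs expected change only which genes count as measured, so they could not move a ratio. The thresholds of 5 or more UMIs, the call after thinning and the removal of barcodes kept in both libraries were added after seeing the data.

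The PAX6 share was 0.460% and 0.490% (SO_L1 and ASO_L1) at 8000 UMIs, 1.27% and 1.72% at 20000, 3.84% and 4.95% with 2000 genes and under 10% mitochondrial UMIs, 6.43% and 9.57% with 1 PAX6 UMI, and 1.64% and 2.79% with 3. It was 1.66% in SO_L1 with 500 genes. Counts of genes 2-fold apart moved by over 1.5 times as follows. With 1 PAX6 UMI, 115 were higher and 167 lower in SO_L1, and 68 and 179 in ASO_L1. With each cell weighing the same, 423 and 703 were lower. With 50 UMIs expected, SO_L1 gave 114 and 134, ASO_L1 197 lower, and ASO_L1 over SO_L1 273 higher and 495 lower. With 5 expected these were 430 and 611, 219 and 828, and 735 and 1297; here fewer or more genes were tested. ASO_L1 over SO_L1 gave 1401 lower without barcodes listed in both libraries, and 274 higher with the thinned call.

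Ratios of PAX6 cells over PAX6-0 cells that crossed 1 were these. In SO_L1, SLC28A2 stood at 0.246 (3 PAX6 UMIs), 0.237 (no high-UMI cells), 0.293 (no listed barcodes), 0.263 (stricter cells), 0.318 (5 UMIs) and 0.283 (thinned call). SFRP1 stood at 0.72 with 3 UMIs and 0.889 with 5, DISC1FP1 at 0.281, CCNB1 at 1.07 and CRABP1 at 0.935 with 5, and CDKN1A at 1.21 and NCAM1 at 0.705 with 1. RHOJ stood at 0.581 without listed barcodes, and CCNB1 at 1.01 and CRABP1 at 0.948 with the thinned call. In ASO_L1, ATF5 stood between 0.953 and 0.994 (0.953, 0.994, 0.990, 0.987 and 0.978), CDKN1A at 0.614 and 0.834, GATA2 at 0.348, ZIC2 at 0.840 and SFRP1 at 0.550. For ASO_L1 over SO_L1 among PAX6 cells, removing listed barcodes gave ABCA13 1.89, CD24 1.01, FGF4 1.15 and SFRP1 0.935. With 5 UMIs CYP26A1 stood at 0.916, DISC1FP1 at 1.74, FGF4 at 1.25 and SFRP1 at 0.570, and the thinned call gave DACH1 1.03, FST 0.999 and a forebrain list median log2 of -0.22. The cause was not tested. Depth limits SO_L1 most, with 128 PAX6 cells.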
